A study of Mus musculus with 6 samples.

Results

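Interferon-stimulated genes are the genes that cells switch on when an interferon binds its receptor, and 43 of them were followed here among the 53278 genes of the count table. The members were chosen by name, as genes of the ISG15, IFIT, OAS, Mx, RNA sensor, PARP9 and DTX3L, antiviral effector, immunity-related GTPase (IRG) and guanylate-binding protein (GBP) groups. RNA was sequenced from group 2 innate lymphoid cells (ILC2s) of visceral adipose tissue of C57BL/6 mice aged 8 weeks. All mice had received 3 intraperitoneal injections of 1 µg IL-33, so that the control cells were IL-33-primed as well. The sorted cells were lineage-negative and positive for CD45, ST2 and CD117. Culture was in IL-2 and IL-7, each at 10 ng/mL, together with 5 µg/mL of either DTA-1, an agonistic antibody to the costimulatory receptor GITR, or its isotype control, for 48 h by the labels, although the study's text does not give a single culture time throughout. Each group had 3 libraries made from 10 ng of RNA. The labels do not say whether the replicates came from separate mice or cultures, so that the p-values measure the spread between these libraries, which may be technical.

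Type I interferons act through the receptor chains IFNAR1 and IFNAR2 and the kinases JAK1 and TYK2, which phosphorylate STAT proteins. With IRF9 these form the complex ISGF3, which binds the interferon-stimulated response element (ISRE). Interferon-γ acts through IFNGR1, IFNGR2, JAK1 and JAK2 and leads to binding of the interferon-γ-activated site (GAS), and it is the main inducer of the IRG and GBP families. Many interferon-stimulated genes also have a basal level in resting cells, and interferons are known to restrain ILC2s.

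The libraries held 30569351 to 35131329 expected counts, and at this depth 0 counts are compatible with as many as 3, a limit that covers counting error only. Levels are given as normalized counts, that is CPM after TMM scaling. The chi-square of the counts per degree of freedom, near 1 for counting noise alone, was 9.64 to 37.92 over the pairs of libraries, so that no library was a copy of another. The library labelled DTA-1 replicate 1 stood apart from its group. Its distance was 9.64 to 11.3 to the isotype control libraries but 27.12 and 28.19 to the other DTA-1 libraries, whose distance from each other was 11.39. It was kept under its label, and the fold changes without it are plotted for every member tested and given in the text for those whose values turn on it. All 14 ILC2 markers were present, with at least 64.0 normalized counts in every library. Of the markers of other cells, C1qa, C1qb and C1qc of macrophages, S100a8, S100a9 and Csf3r of neutrophils, Cd8a and Cd8b1 of T cells, Ms4a1 and Pax5 of B cells, Ncr1, Klrb1c and Klrc1 of NK cells and ILC1s, and Siglech and Clec9a of dendritic cells had at most 3 counts in every library. The summed level of 10 macrophage and monocyte markers was 6.53 to 12.4 normalized counts with isotype control and 9.02 to 12.2 with DTA-1, that of 5 neutrophil markers reached at most 0.627, and that of 5 fibroblast markers was 1.80 to 7.68 with isotype control and 0 to 3.98 with DTA-1. That of 4 endothelial markers was 18.4 to 24.4 and 10.6 to 18.3. Pecam1 alone was at 18.4 to 24.4 with isotype control and 10.4 to 18.3 with DTA-1, and the other 3 were under 1 in every library. In the macrophage and monocyte list Cd68 alone was at 3.96 to 10.6 over the 6 libraries. Lum of fibroblasts and Cdh5 of endothelium had at most 3 counts in every library. Other lists had a member at a steady level, and their sums were 41.0 to 54.2 with isotype control and 47.7 to 51.3 with DTA-1 for 7 T cell markers (Cd3g alone 36.2 to 48.6), 16.6 to 17.3 and 17.2 to 18.2 for 4 B cell markers (Cd79b alone 16.4 to 17.8), and 59.2 to 65.8 and 60.8 to 62.9 for 7 dendritic cell markers (Xcr1 alone 44.4 to 47.7). The part of these cells in the results was not tested.

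The members ranged from well expressed to nearly silent in normalized counts, and this held in both groups. Of the 43 members, 26 had a mean of at least 5 normalized counts, 5 lay between 1.5 and 5, and 12 lay under 1.5. This division does not correct for exon length, and some members under 5, such as Isg15 at 4.48 per kilobase, were above some of the 26 per kilobase. The highest members were Ddx58, which encodes the RNA sensor RIG-I, at 123, 145 and 131 normalized counts in isotype control replicates 1, 2 and 3, Ifi47, an IRG GTPase, at 135, 130 and 132, and Ifi35, an interferon-induced protein of the cytosol, at 130, 117 and 118. All 3 were above 100 in every library. Per kilobase of exon the order was different, and Bst2, which encodes the virion-tethering protein tetherin, stood first at 76.4 normalized counts per kilobase, followed by Ifi35 at 70.6, Ifi47 at 51.3 and Igtp at 32.9. The lowest of the 26 better expressed members was Helz2, a coactivator helicase gene, at 1.40 normalized counts per kilobase. Across the 3 isotype control libraries the median coefficient of variation of these 26 members was 8.12%, close to the 7.55% of all 9817 tested genes at that level. It ranged from 1.61% to 31.4%, and the highest belonged to Samd9l, a gene for a translation inhibitor, with 17.6, 33.9 and 26.8 normalized counts.

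**Figure D1:**
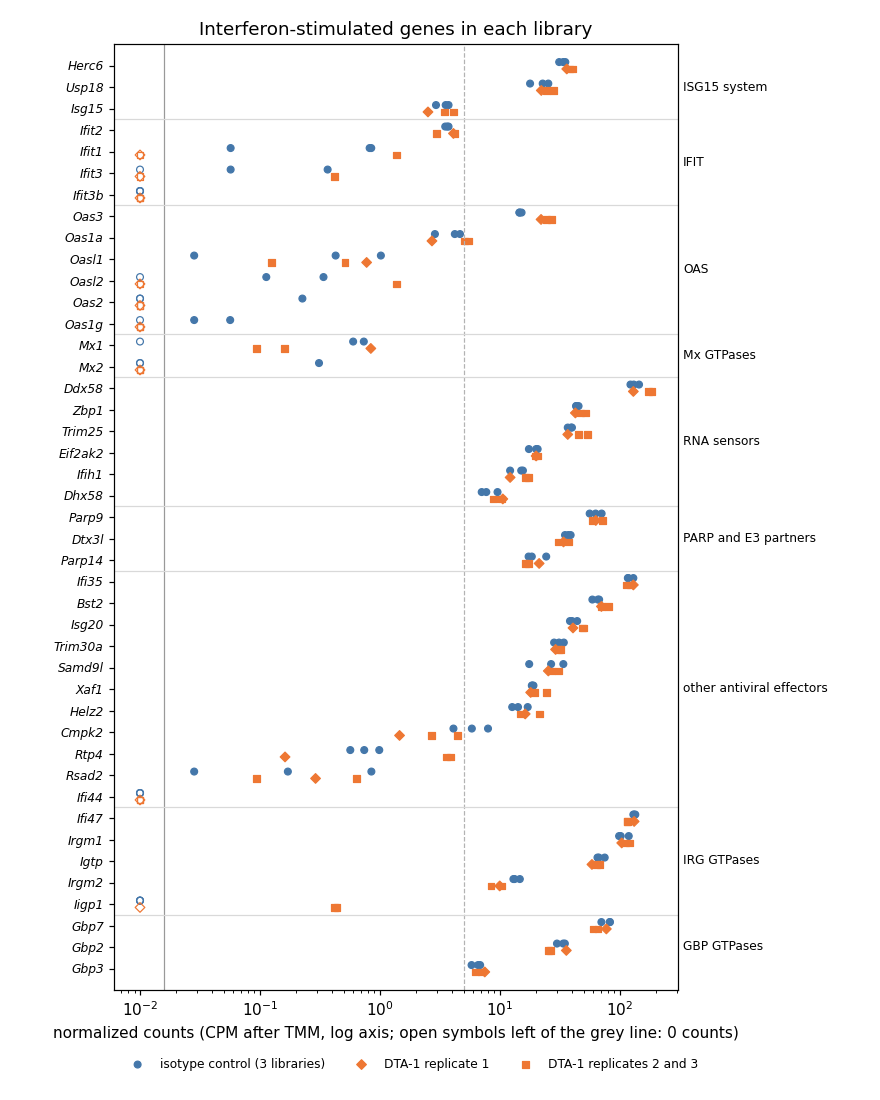
Level of each of the 43 members in each library, in normalized counts on a log axis, grouped by role, with isotype control in blue, DTA-1 replicate 1 as orange diamonds, DTA-1 replicates 2 and 3 as orange squares, and libraries with 0 counts as open symbols at the left. The dashed line marks 5 normalized counts, and the RNA sensors, IRG and GBP genes lie to its right apart from Iigp1, whereas most IFIT, OAS and Mx genes lie to its left.

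Several of the genes most used as a readout of interferon signalling were at or close to 0. Ifi44 and Ifit3b had 0 counts in all 6 libraries, and Ifit3b may share reads with the near-identical Ifit3. Mx2, an antiviral GTPase gene, had 11 counts in isotype control replicate 1 and 0 in every other library, and Oas2 had 8 counts there and 0 elsewhere. Ifit1, whose product binds viral RNA caps, had 30, 2 and 29 counts with isotype control and 0, 43 and 0 with DTA-1. Its paralog Ifit3 had 13, 2 and 0 counts with isotype control and 0, 13 and 0 with DTA-1, and Oasl2 had 12, 0 and 4 against 0, 43 and 0. Within DTA-1 the reads of these 3 genes were thus all in replicate 2. Rsad2, which encodes viperin, had 1, 6 and 30 counts with isotype control and 9, 20 and 3 with DTA-1, and Mx1 had 26, 21 and 0 against 26, 5 and 3, so that the groups overlapped. Isg15, the ubiquitin-like modifier that gives its system the name, was under 5 normalized counts in every library. It was at 2.94, 3.54 and 3.74 with isotype control and 2.52, 3.46 and 4.11 with DTA-1. Its deconjugating protease Usp18 (23.5 normalized counts on average over the 6 libraries) and the conjugating ligase Herc6 (35.9) were higher by this measure. The measure does not correct for exon length. Per kilobase, which allows a comparison between genes, Isg15 was at 4.48, Usp18 at 8.42 and Herc6 at 3.86 normalized counts. By this comparison Usp18 was above Isg15 and Herc6 was below it. In bulk samples fewer expressing cells and less RNA per cell cannot be told apart.

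Promoter sequences of the members are shown because the letters of both interferon elements can be read in them. RefSeq promoters (GRCm38.p6, 250 bases before to 50 after the start site) were given for 33 of the 43 members. The letters GAAANNGAAA, here called the ISRE, were found on either strand in 19 of the 33 members (57.6%), against 3.99% of the promoters of all 27025 genes. TTCNNNGAA, here called the GAS, is its own reverse complement in form, and was found in 9 of 33 members (27.3%) against 9.55% of all genes. A match is a description of the letters and not of binding. The share of promoters with the ISRE letters was close in members with a mean of at least 5 normalized counts (12 of 21) and in members under it (7 of 12). The promoters below are those of the member with the highest mean normalized counts in each of 6 groups. That of Isg15 was added after its values were seen because it has 3 ISRE matches and under 5 normalized counts. Capitals mark the ISRE and GAS matches. They lie at chr5:120777610-120777909, minus strand (Oas3), chr3:142530086-142530385, plus strand (Gbp7), chr4:156200769-156201068, minus strand (Isg15), chr19:34550444-34550743, plus strand (Ifit2, the first listed of 2), chr11:101448162-101448461, plus strand (Ifi35), chr6:57580742-57581041, plus strand (Herc6) and chr11:49076337-49076636, plus strand (Ifi47).
Oas3: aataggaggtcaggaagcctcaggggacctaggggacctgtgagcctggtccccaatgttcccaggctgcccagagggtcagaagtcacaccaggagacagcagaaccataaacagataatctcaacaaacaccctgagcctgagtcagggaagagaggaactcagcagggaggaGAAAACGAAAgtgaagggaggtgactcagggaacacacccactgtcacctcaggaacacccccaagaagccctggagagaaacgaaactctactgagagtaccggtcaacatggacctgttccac
Gbp7: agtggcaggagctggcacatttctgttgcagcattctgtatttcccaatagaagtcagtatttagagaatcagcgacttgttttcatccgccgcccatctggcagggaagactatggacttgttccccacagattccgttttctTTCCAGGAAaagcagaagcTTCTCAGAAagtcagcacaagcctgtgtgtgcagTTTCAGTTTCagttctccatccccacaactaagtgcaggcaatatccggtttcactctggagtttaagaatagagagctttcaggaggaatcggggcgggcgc
Isg15: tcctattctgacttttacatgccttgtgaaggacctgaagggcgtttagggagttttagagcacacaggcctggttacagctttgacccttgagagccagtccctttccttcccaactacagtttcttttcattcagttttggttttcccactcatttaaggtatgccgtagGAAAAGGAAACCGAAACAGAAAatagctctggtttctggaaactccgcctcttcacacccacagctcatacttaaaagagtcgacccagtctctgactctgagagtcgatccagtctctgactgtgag
Ifit2: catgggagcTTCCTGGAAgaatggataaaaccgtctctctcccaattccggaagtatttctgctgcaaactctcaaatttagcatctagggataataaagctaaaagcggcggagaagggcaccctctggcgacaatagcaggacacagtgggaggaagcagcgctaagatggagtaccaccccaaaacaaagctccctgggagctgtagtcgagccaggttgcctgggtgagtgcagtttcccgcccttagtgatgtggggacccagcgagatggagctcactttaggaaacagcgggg
Ifi35: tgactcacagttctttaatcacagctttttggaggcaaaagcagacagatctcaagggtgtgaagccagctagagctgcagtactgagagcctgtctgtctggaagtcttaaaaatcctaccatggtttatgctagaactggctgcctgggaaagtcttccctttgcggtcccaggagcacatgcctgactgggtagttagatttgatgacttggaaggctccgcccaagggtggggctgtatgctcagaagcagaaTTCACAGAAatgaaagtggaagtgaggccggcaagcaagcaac
Herc6: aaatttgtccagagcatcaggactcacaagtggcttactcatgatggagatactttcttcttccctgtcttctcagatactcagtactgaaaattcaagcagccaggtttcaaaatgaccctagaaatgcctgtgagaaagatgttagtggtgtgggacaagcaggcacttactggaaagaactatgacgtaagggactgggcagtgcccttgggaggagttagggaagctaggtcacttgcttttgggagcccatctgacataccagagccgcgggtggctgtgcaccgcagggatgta
Ifi47: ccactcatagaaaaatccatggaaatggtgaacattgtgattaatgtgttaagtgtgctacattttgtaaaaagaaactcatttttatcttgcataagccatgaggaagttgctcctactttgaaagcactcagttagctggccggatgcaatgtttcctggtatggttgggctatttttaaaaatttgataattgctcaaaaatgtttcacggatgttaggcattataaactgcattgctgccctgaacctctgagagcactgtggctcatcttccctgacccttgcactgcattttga
Oas3 has 1 ISRE match and no GAS match, Gbp7 has 1 ISRE match and 2 GAS matches, and Ifit2 and Ifi35 have 1 GAS match each. Herc6 and Ifi47 have neither set of letters in this window. All 3 GBP members, 3 of 4 IFIT members and 3 of 4 IRG members with a promoter in the table held the ISRE letters.

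DTA-1 and isotype control were compared to ask how GITR engagement changes the ILC2 transcriptome. A gene was called where its adjusted p was under 0.05 by edgeR's quasi-likelihood test and its change was at least 1.5-fold. Of the 43 members, 34 passed the filter on low counts and were tested, and 9 near-silent members (Ifit3, Ifit3b, Oas1g, Oas2, Oasl2, Mx2, Rsad2, Ifi44 and Iigp1) were not. With all 6 libraries edgeR called 0 of the 34, and it called 0 of all 14361 genes tested (0.0%). At an unadjusted p under 0.05 there were 6 members, 4 higher and 2 lower, while limma-trend called 0 members and DESeq2's Wald test called 1, Oas3, against 0.152% of the genes DESeq2 adjusted. The 4 higher members were 11.8% of those tested, against a background of 4.11%, and the 2 lower members were 5.88% against 3.11%. The groups did not overlap for 3 members that were higher with DTA-1 (Oas3, Bst2 and Herc6, 8.82% against a background of 5.26%) and 1 that was lower (Irgm2, 2.94% against 6.03%). The median log2 fold change of the 34 members was 0.065, with 21 of 34 above 0 (61.8%), against −0.008 and 48.1% over all genes tested.

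**Figure D2:**
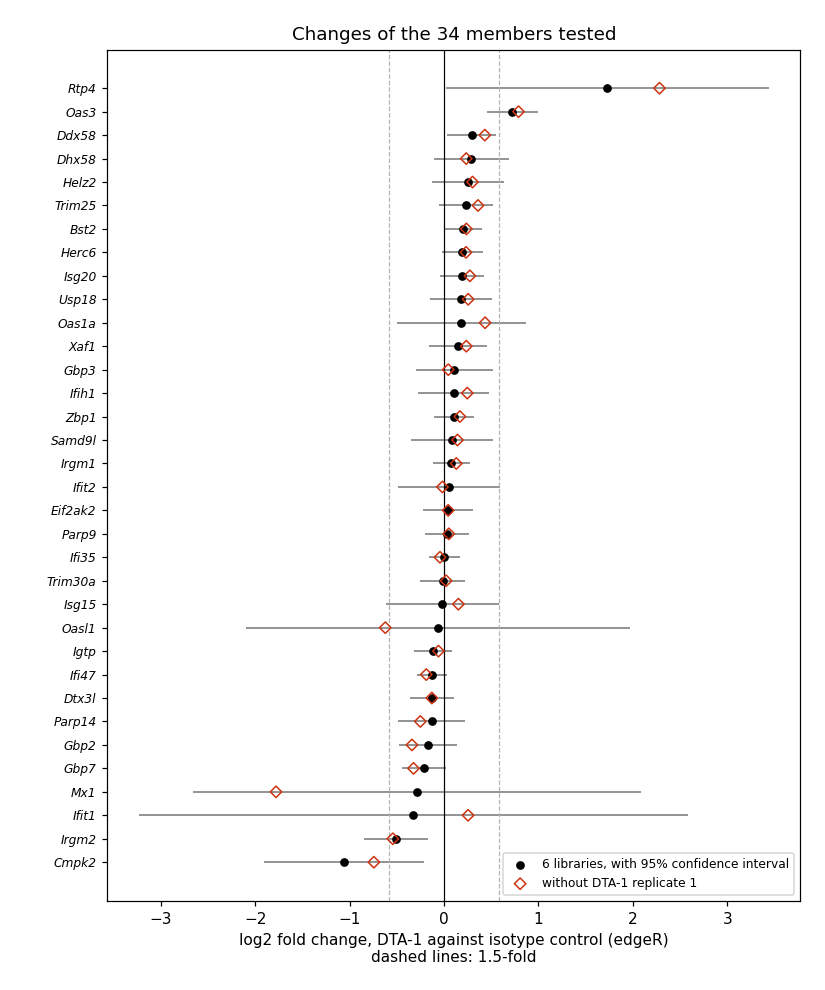
Log2 fold change of the 34 tested members, DTA-1 against isotype control by edgeR, as black points with 95% confidence intervals from all 6 libraries, and as open diamonds without DTA-1 replicate 1. Most points lie between the dashed 1.5-fold lines, Oas3 (0.72) and Rtp4 (1.73) lie above them and Cmpk2 (−1.06) lies below, and the intervals of near-silent genes such as Ifit1 and Mx1 span several log2 units.

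Among the OAS genes, whose products make the oligoadenylates that activate RNase L, Oas3 had the largest difference. Oas3 (chromosome 5, 120753098 to 120777661, minus strand), which encodes the largest of the OAS proteins, had 14.6, 15.2 and 14.6 normalized counts with isotype control and 22.1, 24.4 and 26.8 with DTA-1. All 3 DTA-1 libraries were above all isotype control libraries, replicate 1 included. The mean was 14.8 ± 0.359 with isotype control and 24.4 ± 2.37 with DTA-1 (mean ± SD, n = 3 each), a log2 fold change of 0.72 (SE 0.12, 95% confidence interval 0.45 to 0.99). No gene tested had an edgeR adjusted p under that of Oas3, 0.452, though the adjustment can give several genes the same value. Oas3 was thus not called with all 6 libraries. It was called by DESeq2 (adjusted p = 0.00147, log2 fold change 0.73) and by edgeR without the library labelled DTA-1 replicate 1 (adjusted p = 0.0136, log2 fold change 0.79), in a range of 0.00147 to 0.997 across the alternatives. Oas1a, the next OAS member by level, had 4.66, 2.88 and 4.22 normalized counts with isotype control and 2.72, 5.09 and 5.52 with DTA-1, with overlapping groups and a log2 fold change of 0.18 (SE 0.31). Oasl1 had 1, 15 and 36 counts against 24, 16 and 4.

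All 6 genes of RNA and nucleic acid sensing had positive log2 fold changes, from 0.05 to 0.29, against 48.1% of all genes tested. Across the alternatives Eif2ak2 went down to −0.025 and Ifih1 to 0.006, so that the direction did not hold throughout. Zbp1 was at 0.10 (SE 0.10). Of the 6, 1 passed an unadjusted p of 0.05 by edgeR, Ddx58. Ddx58 (chromosome 4, 40203773 to 40239828, minus strand) had 130, 174 and 186 normalized counts in DTA-1 replicates 1, 2 and 3. Replicate 1 was inside the isotype control range given above and the other two lay over it. Its log2 fold change was 0.29 (SE 0.12, adjusted p = 0.657 by edgeR), and 0.43 without replicate 1, where the edgeR adjusted p was 0.0309, in a range of 0.0309 to 0.999, and the change stayed under 1.5-fold. Trim25, the ligase that modifies RIG-I, had 36.9, 40.0 and 39.3 normalized counts with isotype control and 36.9, 45.5 and 54.0 with DTA-1, the same split between replicate 1 and the other two, and a log2 fold change of 0.23 (SE 0.13) with replicate 1 and 0.36 without it. Ifih1, which encodes the sensor MDA5, and Dhx58, which encodes LGP2, had log2 fold changes of 0.10 (SE 0.17) and 0.29 (SE 0.18). Eif2ak2, the gene for the RNA-activated kinase PKR, was at 19.5 ± 1.68 normalized counts with isotype control and 20.1 ± 0.393 with DTA-1 (mean ± SD, n = 3 each).

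In the ISG15 system Herc6 had 33.8, 35.2 and 31.3 normalized counts with isotype control and 36.2, 40.6 and 38.0 with DTA-1. The groups did not overlap, but the difference was small, with a log2 fold change of 0.19 (SE 0.10, adjusted p = 0.723 by edgeR), or 0.23 without replicate 1. Its annotated span overlaps Gm45193 on the same strand, so that reads may have been divided between them. Usp18 overlapped between groups at a log2 fold change of 0.18 (SE 0.15), and for Isg15 it was −0.02 (SE 0.27). The IFIT gene with a usable level, Ifit2, had 3.63 ± 0.111 normalized counts with isotype control and 3.76 ± 0.710 with DTA-1 (mean ± SD, n = 3 each).

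Of the 11 other antiviral effectors, 9 were tested and 7 had positive log2 fold changes (77.8%, against 48.1% of all genes tested). When total counts replaced TMM it was 6 of 9, against 39.5% of all genes. Bst2 had 67.4, 59.2 and 65.8 normalized counts with isotype control and 70.4, 80.4 and 70.8 with DTA-1. Every DTA-1 library was above every isotype control library, with a log2 fold change of 0.21 (SE 0.09, adjusted p = 0.672 by edgeR), or 0.24 without replicate 1. Cmpk2, a mitochondrial nucleotide kinase gene that lies next to Rsad2, had 5.85, 7.98 and 4.11 normalized counts with isotype control and 1.46, 4.45 and 2.70 with DTA-1. Only DTA-1 replicate 2 reached the isotype control range, and the log2 fold change was −1.06 (SE 0.38, adjusted p = 0.632 by edgeR). Without replicate 1, the lowest library, it was −0.74 (edgeR adjusted p = 0.366, in a range of 0.352 to 0.999). Rtp4, a receptor transporter gene of the interferon response, had 35, 26 and 20 counts with isotype control and 5, 113 and 123 with DTA-1, which is 0.989, 0.741 and 0.567 against 0.162, 3.62 and 3.86 normalized counts. DTA-1 replicate 1 was the lowest of the 6 libraries and replicates 2 and 3 were the highest. The log2 fold change of Rtp4 was 1.73 (SE 0.78, adjusted p = 0.688 by edgeR) and 2.28 without replicate 1, where it was called (edgeR adjusted p = 0.0140, in a range of 0.0140 to 0.999). By limma-trend it was 0.87. Helz2 was at 17.1, 14.2 and 12.7 normalized counts against 16.3, 14.9 and 21.4, with overlapping groups and a log2 fold change of 0.25 (SE 0.17). Ifi35 had near-equal means, 122 ± 7.33 normalized counts with isotype control and 122 ± 8.27 with DTA-1 (mean ± SD, n = 3 each), with a 95% confidence interval of the log2 fold change from −0.16 to 0.17. Isg20, an exonuclease gene, Xaf1, a pro-apoptotic gene, Samd9l and Trim30a had overlapping groups and log2 fold changes from −0.02 to 0.19.

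**Figure D3:**
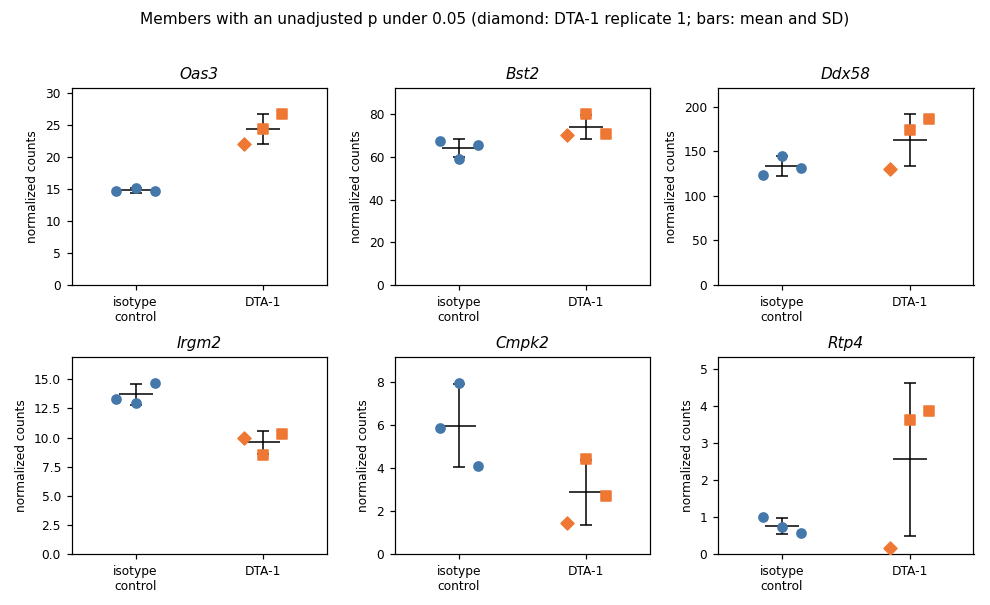
Normalized counts in each library of the 6 members with an unadjusted p under 0.05 by edgeR, with isotype control in blue, DTA-1 in orange, DTA-1 replicate 1 as a diamond, and the group mean and SD in black. Oas3 and Bst2 are higher and Irgm2 is lower in every DTA-1 library, whereas for Ddx58 and Rtp4 DTA-1 replicate 1 lies with or below the isotype control libraries and for Cmpk2 the groups overlap.

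None of the 3 genes of the PARP and E3 ligase group passed an unadjusted p of 0.05, by edgeR or DESeq2. Parp9 had 56.2, 70.7 and 63.0 normalized counts with isotype control and 63.2, 59.4 and 71.7 with DTA-1, and its partner ligase gene Dtx3l had 39.0, 37.3 and 35.0 against 34.0, 37.2 and 30.6. Parp14 had 18.5, 17.4 and 24.4 against 21.3, 17.3 and 16.4. In all 3 the groups overlapped, and their log2 fold changes were 0.03 (SE 0.11), −0.13 (SE 0.11) and −0.13 (SE 0.16). Parp9 and Dtx3l overlap on opposite strands, and whether the counting used strand is not given in the sources used here.

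The IRG and GBP GTPases, which attack the vacuoles of intracellular pathogens, had a median log2 fold change of −0.12 over the 7 tested. Of these 5 were below 0 and 28.6% above it, against 48.1% above 0 over all genes tested. Over the other 27 members tested the median was 0.10, with 19 above 0. This split is given as a description and was not tested. Irgm2 (chromosome 11, 58199618 to 58222782, plus strand) had 13.3, 13.0 and 14.7 normalized counts with isotype control and 9.99, 8.46 and 10.3 with DTA-1. Every DTA-1 library was below every isotype control library, and the log2 fold change was −0.51 (SE 0.15, adjusted p = 0.627 by edgeR), or −0.54 without replicate 1 (edgeR adjusted p = 0.177, in a range of 0.177 to 0.999). Irgm2 overlaps Igtp on the same strand, so that the division of reads between them is uncertain. Igtp itself had 65.3, 75.0 and 67.1 normalized counts against 58.7, 68.5 and 64.2, a log2 fold change of −0.12 (SE 0.09). Ifi47 had 132, 117 and 115 normalized counts in DTA-1 replicates 1, 2 and 3, so that replicate 1 lay within the isotype control range and the other two below it, with a log2 fold change of −0.12 (SE 0.07, adjusted p = 0.738 by edgeR), or −0.19 without replicate 1. Its annotated span lies inside that of Olfr56 on the same strand. Irgm1, a regulator of the family, had 102, 119 and 98.9 normalized counts against 104, 113 and 120, with overlapping groups.

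Gbp7 had 70.4, 82.8 and 82.8 normalized counts with isotype control and 77.4, 59.9 and 65.9 with DTA-1, and Gbp2 had 30.0, 34.9 and 33.8 against 35.9, 25.6 and 26.4. For both genes DTA-1 replicates 2 and 3 were below all isotype control libraries and replicate 1 was not. The log2 fold changes were −0.22 (SE 0.11, adjusted p = 0.717 by edgeR) for Gbp7 and −0.17 (SE 0.14, adjusted p = 0.832 by edgeR) for Gbp2. Without replicate 1 they were −0.32 and −0.34. Gbp3 was at 6.42 ± 0.538 normalized counts with isotype control and 6.92 ± 0.617 with DTA-1 (mean ± SD, n = 3 each). Iigp1 had 0 counts in every isotype control library, and its DTA-1 counts were 0, 13 and 14. Its DTA-1 mean, which rests on replicates 2 and 3, was 3.35 times the level of 3 counts per library. Replicate 1 was again at the isotype control level.

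The calls changed once DTA-1 replicate 1 was set aside. Of the 38 members then tested, 2 were called, Oas3 and Rtp4, both higher (5.26%), against 0.744% of the 14911 genes tested. At an unadjusted p under 0.05 there were 8 higher members, with a background of 7.5% of all genes, and 4 lower members, with a background of 6.53%. All 4 lower members were IRG or GBP genes, namely Ifi47, Irgm2, Gbp2 and Gbp7, with edgeR adjusted p from 0.173 to 0.220. The 8 higher members were Oas3, Rtp4, Ddx58, Trim25, Isg20, Bst2, Herc6 and Iigp1, and the last of these is itself an IRG gene. Iigp1 had 0 counts with isotype control and entered this fit only through DTA-1 replicates 2 and 3, so that its place in the count says nothing further, and the other 7 were tested with all 6 libraries as well. The median log2 fold change of the 38 was 0.147, with 26 above 0 (68.4%), against −0.015 and 47.1% over all genes. Ifit3, Oasl2, Rsad2 and Iigp1 had not passed the filter with all 6 libraries, and here all had values above 0 (0.54, 2.16, 0.07 and 6.87). The count above 0 thus rose partly because these members entered this fit. This fit has 2 DTA-1 libraries, and its place beside the main results was chosen with the values of the library known.

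By library, DTA-1 replicates 2 and 3 were the highest of the 6 for 8 and 10 of the 34 tested members, against 18.0% and 16.8% of all genes. DTA-1 replicate 1 was the lowest for 9 (26.5%, against 14.7% of all genes) and isotype control replicate 1 for 8 (23.5%, against 17.5%). The median deviation of the 26 better expressed members from their own means was −0.043, −0.012 and −0.030 on the log2 scale in the isotype control libraries, and −0.034, 0.059 and 0.047 in the DTA-1 libraries. Over all 34 tested members it was −0.040, 0.001 and −0.017 in the isotype control libraries, and −0.057, 0.068 and 0.047 in the DTA-1 libraries. DTA-1 replicate 1 thus lay within the isotype control range by the first measure and below it by the second, and the other two DTA-1 libraries lay above it by both. The SD of these library medians within groups, over the 34 members, was 0.05.

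**Figure D4:**
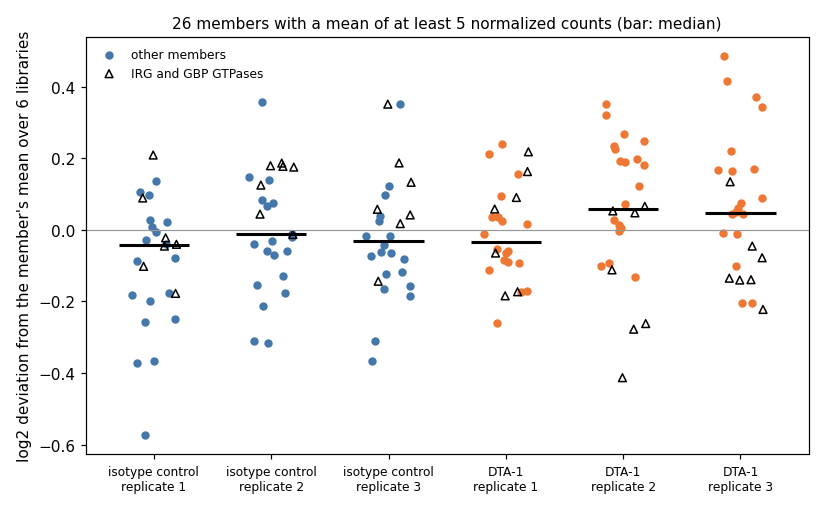
Deviation of each of the 26 better expressed members from its own mean over the 6 libraries, on the log2 scale, with triangles for IRG and GBP GTPases, filled points for the other members and a bar for the median of each library. The medians lie between −0.043 and 0.059, and in DTA-1 replicates 2 and 3 most triangles lie at or below 0 while most points lie above it.

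The rest of the pathway was examined as 115 genes in 6 lists, none of them members. Of 21 interferon ligand genes, 20 had 0 counts in all 6 libraries, Ifnb1, Ifng and the listed Ifna genes among them, and Ifnz had 13, 2 and 8 counts with isotype control and 19, 0 and 5 with DTA-1. The receptors were present except that of the type III interferons, since Ifnlr1 had 0 counts in all 6 libraries. Ifnar1 had 94.3, 111 and 99.7 normalized counts with isotype control and 89.2, 120 and 113 with DTA-1, and Ifnar2 had 90.7, 85.3 and 102 against 90.0, 84.9 and 90.2, both with overlapping groups. Ifngr1 had 214, 207 and 227 normalized counts against 224, 175 and 172, so that replicates 2 and 3 lay below isotype control and replicate 1 did not. The log2 fold change of Ifngr1 was −0.18 (SE 0.10, adjusted p = 0.733 by edgeR), and −0.32 without replicate 1 (edgeR adjusted p = 0.0460, in a range of 0.0460 to 0.999). Ifngr2 had 73.8, 73.8 and 75.3 against 67.9, 85.6 and 86.9, with a log2 fold change of 0.11 (SE 0.10), and Il10rb, the second chain of the type III receptor, had one of −0.11 (SE 0.09).

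Among 8 kinase, STAT and IRF genes, 3 were higher at an unadjusted p under 0.05 (Irf9, Tyk2 and Jak1, the last at the threshold), against 4.11% of all genes, 0 were lower by edgeR, and none was called by edgeR or DESeq2 with all 6 libraries. Tyk2 did not overlap between groups, at 136, 141 and 132 against 141, 158 and 165 normalized counts, though its closest pair of libraries differed by less than the rounding, with a log2 fold change of 0.18 (SE 0.07). Irf9 had 38.5, 32.3 and 32.4 normalized counts against 33.8, 55.3 and 52.9, with replicate 1 inside the isotype control range. Its log2 fold change was 0.46 (SE 0.17, adjusted p = 0.632 by edgeR), and 0.65 without replicate 1, where it was called (edgeR adjusted p = 0.0161, in a range of 0.0161 to 0.999). Irf9 overlaps Rnf31 on the same strand. Irf7, the factor that amplifies type I interferon, followed the same split, at 17.2, 13.9 and 14.9 against 14.9, 22.3 and 21.3 normalized counts (log2 fold change 0.35, SE 0.17). Stat2 and Irf1 overlapped between groups at log2 fold changes of 0.08 (SE 0.09) and −0.03 (SE 0.07). Jak2 and Irf8 overlapped as well and were below 0, at −0.10 (SE 0.07) and −0.14 (SE 0.13). Without replicate 1 Irf8 was at −0.28.

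**Figure D5:**
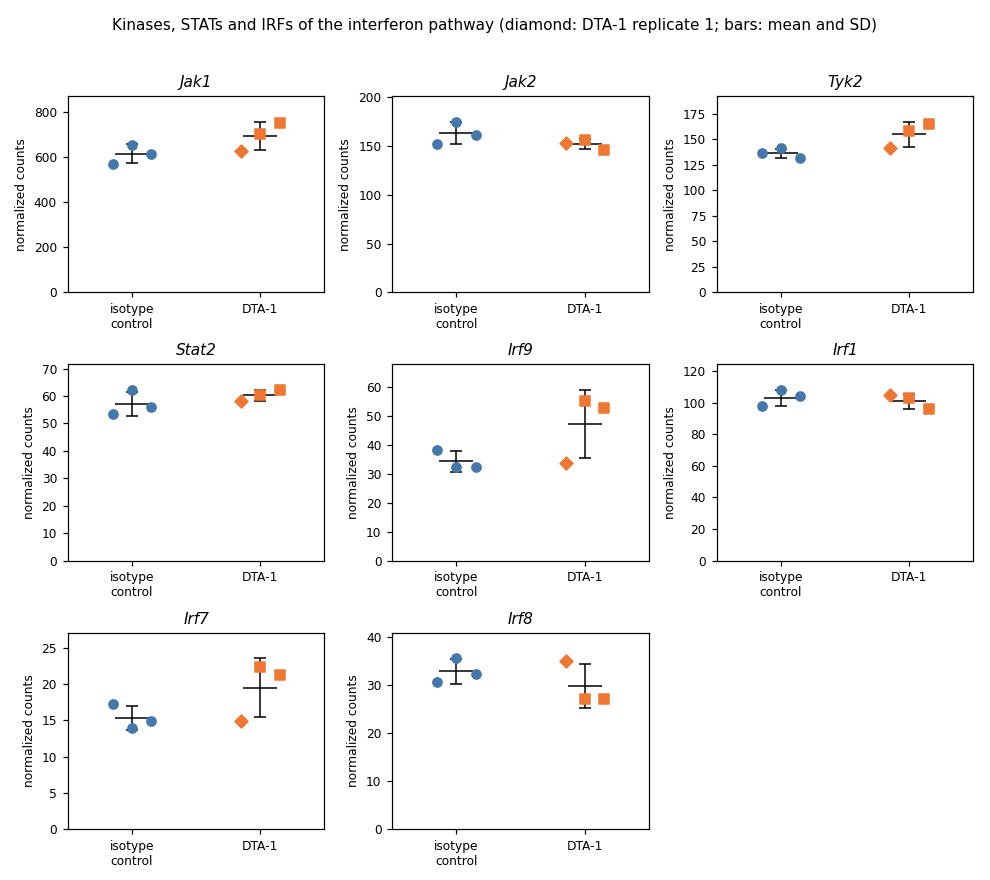
Normalized counts in each library of 8 kinase, STAT and IRF genes of the interferon pathway, with isotype control in blue, DTA-1 in orange, DTA-1 replicate 1 as a diamond, and the group mean and SD in black. Irf9 and Irf7 are higher in DTA-1 replicates 2 and 3 while replicate 1 lies within the isotype control range.

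Of the 9 upstream sensing genes tested 0 passed an unadjusted p of 0.05 by edgeR, and of 7 negative regulators 1 did, the phosphatase gene Ptpn2 (log2 fold change −0.22, SE 0.09). Of 61 further interferon-stimulated genes 55 were tested. EdgeR called 0 of them, 6 were higher and 4 lower at an unadjusted p under 0.05, and their median log2 fold change was 0.015 (30 of 55 above 0). The shares were 10.9% and 7.27%, with 4.11% and 3.11% over all genes. The 4 lower genes were Gbp8, Gbp10, Phf11b and Slfn5, while the most abundant GBP gene of the list, Gbp4, at 308 normalized counts on average, had a log2 fold change of 0.02 (SE 0.08). Gbp5, Gbp6 and Gbp9 were at −0.64 (SE 0.37), −0.13 (SE 0.09) and −0.11 (SE 0.15). The IRG genes Tgtp1 and Tgtp2 were near 0, at 0.028 (SE 0.12) and 0.002 (SE 0.07). Gbp8 had 66.1, 63.7 and 61.5 normalized counts with isotype control and 58.5, 43.5 and 41.0 with DTA-1, below isotype control in every library, with a log2 fold change of −0.42 (SE 0.13, adjusted p = 0.627 by edgeR), and −0.60 without replicate 1 (edgeR adjusted p = 0.0105, in a range of 0.0105 to 0.999). It overlaps Gbp4 and Gbp9 on the same strand, so that the division of reads among them is uncertain. Gbp10 was low, at 1.19, 2.02 and 1.30 against 0.615, 0.641 and 0.784 normalized counts, and its groups did not overlap either. Tapbp, the tapasin gene of MHC class I loading, had 588, 574 and 557 normalized counts against 590, 751 and 724, with a log2 fold change of 0.26 (SE 0.09, adjusted p = 0.627 by edgeR). The surface protein genes Ly6a and Ly6e were the highest of these, with log2 fold changes of 0.25 (SE 0.08) and 0.22 (SE 0.08). Without replicate 1, 3 of the 86 pathway genes then tested were called, against 0.744% of all genes, with Irf9 and Cd274 higher and Gbp8 lower. Cd274, which encodes PD-L1, had 12.6, 13.7 and 13.2 normalized counts with isotype control and 10.7, 20.5 and 25.0 with DTA-1, with replicate 1 below isotype control.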

How the data were processed

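RNA was measured by sequencing in 3 isotype control and 3 DTA-1 libraries. The deposited values are expected counts per gene, which the authors estimated with Partek from reads aligned to mm10, without normalization. The submitters' processing notes name bcl2fastq 2.17.1.14, STAR 2.5.3a and Partek, and the annotation release and the use of strand are not given in the sources used here. Of all values 79.7% were whole (tolerance 1e-06). Of 49721 symbols shared with GENCODE mouse release M21, 47717 had its start and end, after 1 base was taken from the end, and lengths are exon unions of that release. Counts were rounded to whole numbers, filtered with filterByExpr by group, and scaled by TMM. The test was edgeR 4.0.16 in R 4.3.3 (quasi-likelihood, robust, Benjamini-Hochberg over all genes tested, no covariate, common dispersion 0.0256). Other fits used limma 3.58.1 (prior count 2) and DESeq2 1.42.0, and tables and plots Python 3.11.15, pandas 2.3.3, numpy 2.4.6 and matplotlib 3.10.9. Tested on simulated data of this comparison (14153 genes, 200 changed by 2-fold), the edgeR procedure recovered 194 (97%) with 10 false calls. This share holds for the simulated data and does not give the share of real changes that the test would find. In the real data the dispersion differed between genes, with 0.0116 for Oas3 and 0.412 for Rtp4, and DTA-1 replicate 1 stood apart from its group. All 6 columns were used, and 0 columns of samples were left out. The control columns are named PBS-GITR in the deposited counts, while their sample titles call them isotype, the name used here.

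The members and lists were chosen with earlier results of these data known. Values by library are given for members with a mean of at least 5 normalized counts that had the highest mean or the largest fold change of their role, for the 5 members with the smallest p, and for further genes chosen after their values were seen. The alternatives were 2 other scalings, 2 other filters, the replicate number as a block, DESeq2, limma-trend, no limit on the fold change, and each library left out in turn. The numbers are shared between groups, but same-numbered libraries did not deviate together (r across genes from −0.007 to 0.015), so they were not taken as pairs. A pathway gene and a marker gene of the lists are not reported here.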

Additional observations from a re-analysis of the deposited data

How the results depend on the processing

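With edgeR and all 6 libraries 0 members were called under either other scaling, either other filter, no limit on the fold change and the replicate number as a block, and limma-trend called 0 as well. DESeq2 called 1. Over the 6 fits that left out 1 library the members called ranged from 0 to 2, the members at an unadjusted p under 0.05 from 3 (without DTA-1 replicate 3) to 12 (without DTA-1 replicate 1), the median log2 fold change of the members from 0.057 to 0.147, and the pathway genes called from 0 to 3. The highest of each was without DTA-1 replicate 1, and the cause was not tested. Over all genes the calls went from 0 to 111 when 1 library was left out, and were 2 without the filter, 25 by DESeq2 and 1 with the replicate block. With the block 4 members passed an unadjusted p of 0.05 and the median was 0.089, and the block changed no call of a member or pathway gene. Members above 0 numbered 19 of 34 with total counts (55.9%, against 39.5% of all genes under that scaling). In the smaller set without the 4 members that overlap a tested gene on the same strand they numbered 20, an alternative chosen after the data were seen.

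Of 168 values of 13 members under the alternatives, 157 kept the direction and the call, 3 became calls (Oas3 and Rtp4) and 8 reversed. All 8 were of members near 0. With total counts Parp9 was at −0.003 and Ifi35 at −0.031, and with 1 library left out Parp9 ranged from −0.045 to 0.120, Ifi35 from −0.043 to 0.059 and Parp14 from −0.251 to 0.031. Without DTA-1 replicate 2 the log2 fold change of Cmpk2 was −1.52. The log2 fold change of Rtp4 was 0.87 by limma-trend and 1.24 with the replicate block. Ifit1, Mx1 and Rsad2 had 43 counts or fewer in every library, which limits the precision of their values.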
